A study of Mus musculus with 16 samples.

Results

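The 4 Egr genes (Egr1, Egr2, Egr3 and Egr4), the 3 Nr4a genes (Nr4a1, Nr4a2 and Nr4a3) and Nab1 and Nab2, the genes of proteins that bind Egr factors, were followed in microglia of the mouse olfactory bulb. They were taken by symbol, 9 of the 57010 genes counted, and all 9 passed the filter on low counts that left 18227 genes. The set was chosen by measured values: Egr4 had been seen higher and Egr1 lower in knock-in than in WT microglia in these same libraries. The difference between genotypes is therefore given for these genes as a description, with no test read from it, and tests are kept for sex, for the numbering of the libraries and for variation within groups.

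The study compared 2-month-old WT (C57BL/6J) mice with APP-NL-G-F mice, labelled KI, which carry a humanised App gene in which NL stands for the Swedish, G for the Arctic and F for the Iberian change, in place of the mouse one in every cell. There were 16 libraries in 4 groups of 4, females and males (f and m in the labels) of either genotype, and no other treatment. Bulbs were digested with papain at 37 °C, and CD11b-positive cells were captured on magnetic beads in repeated passes. This capture also keeps other CD11b-positive myeloid cells. Every library was made after these steps, so levels before them were not measured, and what the steps changed was not tested. The labels do not say whether a library came from 1 mouse or from pooled mice, a form of the study mentions technical replicates for the sequencing that the table does not show, and p-values measure the spread between these libraries.

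Egr proteins are zinc finger transcription factors that bind a GC-rich element, and Nr4a proteins (Nur77, Nurr1 and Nor1) are orphan nuclear receptors that bind DNA without a known hormone. Both families are immediate early genes: signalling through MAP kinases, calcium and cAMP switches them on within minutes through SRF and CREB already bound at their promoters, and the transcripts are short-lived. Nab1 and Nab2 bind Egr1, Egr2 and Egr3 and mostly repress their targets. In the bulb these genes are known for following odour-driven activity in neurons, and in macrophages and microglia Egr1 and Nr4a1 are known to respond to inflammatory and growth factor signals.

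Promoter sequences are shown because the members differ in the elements through which such signals act. RefSeq (GRCm38.p6) start sites gave 11 windows for 7 of the 9 genes, from 250 bases before to 50 after each start. Egr1 and Egr3 had no entry. Each window was searched on both strands for TGACG (the core of the cAMP response element), its full palindrome TGACGTCA, the CArG box bound by SRF, GCGNGGGCG (the Egr element) and AAAGGTCA (the Nr4a element). TGACGTCA contains TGACG on each strand, but neither it nor AAAGGTCA occurred in any member's window. The lines below give the 250 bases before the start, 5′ to 3′ on the strand of the gene, with every match in capitals. A TGACG on the opposite strand reads CGTCA.
Egr2 (chr10:67537619-67537868, plus strand): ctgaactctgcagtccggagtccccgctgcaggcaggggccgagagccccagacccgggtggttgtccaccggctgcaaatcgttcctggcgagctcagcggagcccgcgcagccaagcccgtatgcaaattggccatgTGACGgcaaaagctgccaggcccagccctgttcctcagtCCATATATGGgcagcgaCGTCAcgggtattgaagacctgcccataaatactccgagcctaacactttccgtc
Egr4 (chr6:85513590-85513839, minus strand): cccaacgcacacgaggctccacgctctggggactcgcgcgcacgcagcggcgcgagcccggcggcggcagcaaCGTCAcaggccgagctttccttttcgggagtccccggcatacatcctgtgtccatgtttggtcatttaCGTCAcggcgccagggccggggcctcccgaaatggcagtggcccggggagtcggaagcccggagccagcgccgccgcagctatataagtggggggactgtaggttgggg
Nr4a1 (chr15:101266596-101266845, plus strand): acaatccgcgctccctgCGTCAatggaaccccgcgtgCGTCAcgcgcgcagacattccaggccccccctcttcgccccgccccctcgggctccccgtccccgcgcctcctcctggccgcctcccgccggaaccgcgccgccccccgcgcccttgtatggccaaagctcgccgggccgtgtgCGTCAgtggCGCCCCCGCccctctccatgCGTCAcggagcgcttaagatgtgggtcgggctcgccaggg
Nr4a2 (chr2:57124004-57124253, minus strand): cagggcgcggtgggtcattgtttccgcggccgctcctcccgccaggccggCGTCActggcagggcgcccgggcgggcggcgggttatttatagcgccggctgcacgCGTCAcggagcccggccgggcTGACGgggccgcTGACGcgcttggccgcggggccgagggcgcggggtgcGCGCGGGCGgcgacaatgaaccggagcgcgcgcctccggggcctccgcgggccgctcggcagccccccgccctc
Nr4a3 (chr4:48045055-48045304, plus strand): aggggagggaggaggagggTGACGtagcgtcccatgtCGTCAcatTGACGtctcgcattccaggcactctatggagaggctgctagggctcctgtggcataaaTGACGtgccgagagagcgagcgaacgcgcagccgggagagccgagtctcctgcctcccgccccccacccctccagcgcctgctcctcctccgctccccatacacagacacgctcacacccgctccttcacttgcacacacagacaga
Nab1 (chr1:52500449-52500698, minus strand): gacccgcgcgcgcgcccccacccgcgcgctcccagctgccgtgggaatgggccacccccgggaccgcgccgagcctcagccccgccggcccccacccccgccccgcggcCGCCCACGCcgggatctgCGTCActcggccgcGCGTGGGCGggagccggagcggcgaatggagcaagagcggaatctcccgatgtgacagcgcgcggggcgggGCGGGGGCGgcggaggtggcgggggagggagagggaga

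All 3 Nr4a windows held 4 copies of TGACG, and at least 4 were found in 0.231% of the 32851 windows of the table. Egr4 held 2 copies and no CArG box. Egr2, in 3 of its 5 windows, held 2 copies of TGACG with a CArG box between them, and a CArG box stood in 4 of the 5. Those 3 windows overlap and show the same sites, so they are not separate cases. At least 1 TGACG occurred in 20.8% of all windows, at least 2 in 5.01%, and a CArG box in 1.63%. The Nab1 window held 3 copies of the Egr element, which Nr4a1 and Nr4a2 held once each and 5.55% of all windows held at least once. Nab2 had no match to any of the 5 motifs. These are letter matches and were not tested as binding sites.

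The libraries held 9052932 to 18117286 counts (median 11926833), so that 3 counts, the most that a count of 0 allows, correspond to 0.166 to 0.331 CPM (counts relative to the TMM-adjusted library total). Xist separated the sexes as labelled, at 547 CPM or more in females and 0.448 CPM or less in males. The gene App was at 371 to 462 CPM in WT and 388 to 423 CPM in KI libraries; counts per gene do not show the knock-in. The 13 homeostatic microglia markers, among them Cx3cr1, P2ry12 and Tmem119, summed to 22400 to 26600 CPM in WT and 22400 to 26000 CPM in KI, and none passed the genotype test. Markers of border macrophages, which also carry CD11b, summed to 424 to 889 CPM over all libraries, and neuron markers to 545 to 1110 CPM.

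Between genes, levels were compared per length, as RPKM from the exonic length of GRCm39 (gencode vM39). This length counts every base in any annotated exon of a gene, 10903 bases for Nr4a1 and 3405 for Egr2. The order of genes and the family shares given below therefore depend on the annotation. Egr1 (chromosome 18, 34992876 to 34998049, 2 exons) stood far above the other members, at 309.8 ± 108.4 RPKM (SD, n = 8) in WT. Its lowest WT library, at 179.6 RPKM, was above the highest of any other member. Egr2 at 18.35 ± 5.24 RPKM, Egr3 at 14.07 ± 5.35 RPKM and Nr4a1 at 12.65 ± 5.46 RPKM followed, with overlapping ranges. Not divided by length, the WT mean of Nr4a1 was 137.9 CPM, against 62.5 CPM for Egr2 and 66.2 CPM for Egr3. Nab1 lay at 8.26 ± 0.614 RPKM and Nab2 at 5.41 ± 0.452 RPKM, with no overlap between them, while Nr4a3 at 4.87 ± 2.11 RPKM spanned both. Nr4a2 at 0.740 ± 0.184 RPKM lay below every library of Nr4a3. Egr4 (chromosome 6, 85485678 to 85490675, 2 exons) was the lowest, at 0.243 ± 0.0748 RPKM, and its highest WT library at 0.347 RPKM was below the lowest of Nr4a2 at 0.493 RPKM. In KI libraries the ranges of Egr4 (0.144 to 0.737 RPKM) and Nr4a2 (0.611 to 0.857 RPKM) overlapped.

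**Figure D1:**
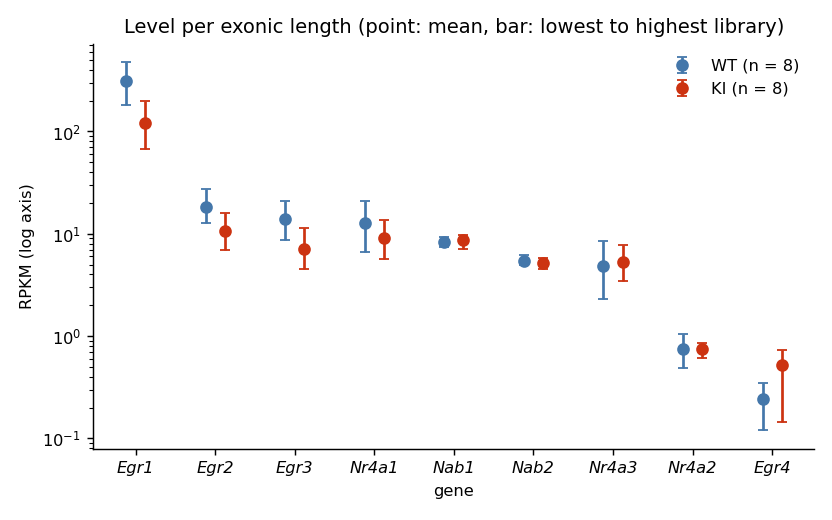
RPKM of each gene on a log axis in WT and KI microglia (n = 8 libraries each); points are means and bars run from the lowest to the highest library. Egr1 lies above 67 RPKM in every library, while Egr4 stays below 0.74 RPKM.

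Within the Egr family, Egr1 made up 90.2% ± 1.75 (SD, n = 8) of the summed RPKM in WT and 86.5% ± 1.54 in KI. The Egr4 share was 0.0792% ± 0.0395 in WT and 0.418% ± 0.213 in KI. Within the Nr4a family, Nr4a1 took 68.9% ± 5.16 in WT and 59.0% ± 5.53 in KI, and Nr4a3 took 26.7% ± 5.18 and 35.7% ± 4.64. Egr4 remained a small part of the Egr transcripts in both genotypes.

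Egr1, the zinc finger factor on which the choice of genes partly rested, was 1.29 lower in KI on the log2 scale (-1.29, SE 0.23). WT females were at 2128, 1864, 1695 and 1540 CPM and WT males at 807.7, 840.0, 1187 and 1083 CPM, in the order of replicates 1 to 4. KI females were at 433.6, 486.3, 383.2 and 773.0 CPM and KI males at 304.0, 368.4, 722.1 and 892.4 CPM. Of the 8 KI libraries 7 lay below the lowest WT library, and only KI male replicate 4 lay inside the WT range. The difference was -1.80 (SE 0.282) in females and -0.78 (SE 0.275) in males. In bulk RNA, fewer cells expressing a gene cannot be told apart from less RNA per cell.

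Egr2, known for its part in myeloid cells and Schwann cell myelination, and Egr3, a close relative of Egr1, were lower in KI as well, by -0.74 (SE 0.186) and -0.93 (SE 0.223) on the log2 scale. Egr2 was at 73.8, 57.7, 80.0 and 92.5 CPM in WT females, 43.2, 48.6, 58.7 and 45.5 CPM in WT males, 29.7, 30.9, 29.45 and 51.6 CPM in KI females and 23.7, 25.6, 48.3 and 53.8 CPM in KI males. Egr3 was at 97.3, 64.9, 90.0 and 98.4 CPM in WT females, 43.7, 41.1, 46.2 and 48.25 CPM in WT males, 27.9, 21.2, 26.95 and 42.5 CPM in KI females and 25.9, 23.2, 44.6 and 54.0 CPM in KI males. For each of these genes 5 of the 8 KI libraries lay below all WT libraries, and the ranges overlapped through KI libraries of replicates 3 and 4.

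Egr4, the least known of the family, differed in the other direction, at 1.06 (SE 0.262) higher in KI on the log2 scale. WT females were at 1.06, 0.925, 1.43 and 1.62 CPM and WT males at 1.46, 1.125, 0.560 and 0.914 CPM. KI females were at 2.74, 0.672, 3.445 and 3.29 CPM and KI males at 2.30, 2.32, 2.015 and 2.60 CPM. Of the KI libraries 7 lay above the highest WT library, and KI female replicate 2 lay near the lowest. The levels rest on 5 to 44 counts per library. The 9 counts of KI female replicate 2 give a 95% Poisson interval of 0.307 to 1.27 CPM, and the 24 counts of KI male replicate 3, the next lowest, one of 1.29 to 3.0 CPM; both cover counting error only. Without KI female replicate 2 the difference was 1.23. It was 0.99 (SE 0.37) in females and 1.15 (SE 0.386) in males.

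**Figure D2:**
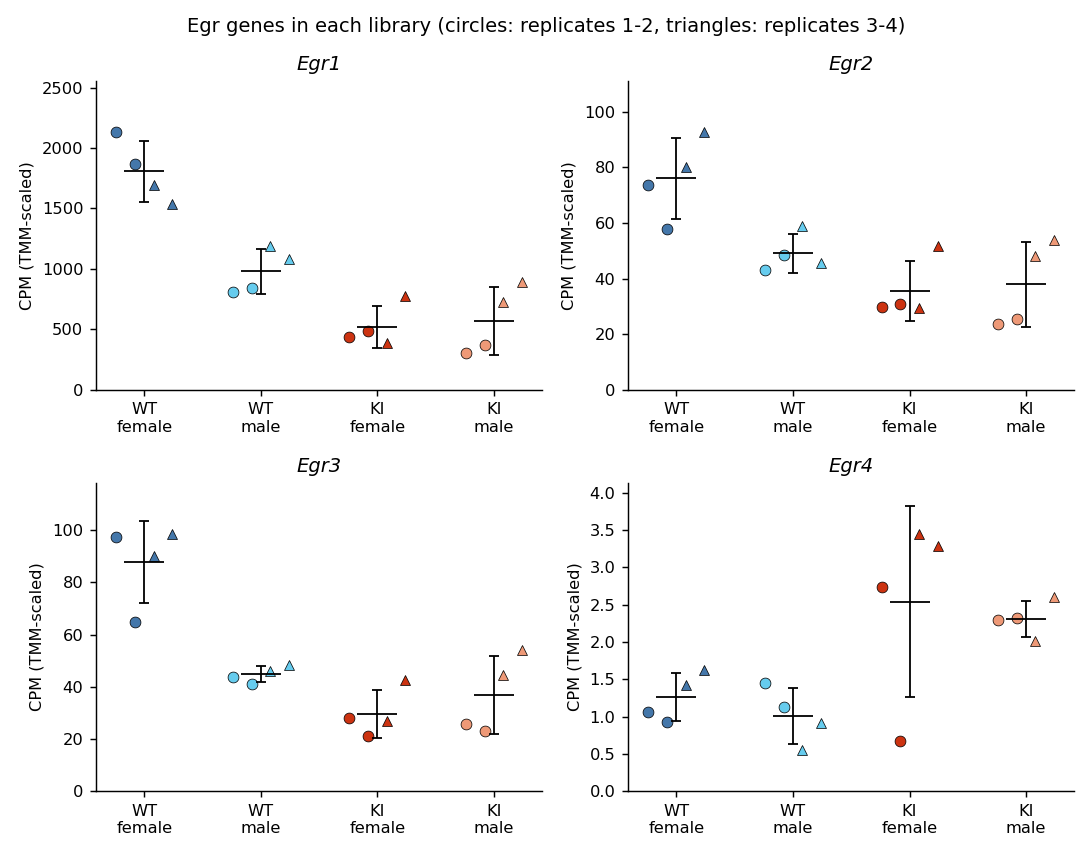
CPM of Egr1 to Egr4 in each library by genotype and sex, on linear axes that start at 0; circles are replicates 1 and 2, triangles replicates 3 and 4, and lines show the group mean ± SD (n = 4). Egr1, Egr2 and Egr3 lie highest in WT females, while Egr4 lies above 2 CPM in 7 KI libraries and in no WT library.

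The Nr4a genes differed less. Nr4a1 (Nur77) was -0.47 (SE 0.249) on the log2 scale in KI, with WT libraries at 72.95 to 227.8 CPM and KI libraries at 62.4 to 148.6 CPM, and 3 of the 8 KI libraries lay below the lowest WT library. Nr4a2 (Nurr1), known as a factor of dopamine neurons, was 0.02 (SE 0.133), with 4.05 to 8.54 CPM in WT and 5.02 to 7.03 CPM in KI. Nr4a3 (Nor1) was 0.12 (SE 0.23), with 13.95 to 50.4 CPM in WT and 20.8 to 46.5 CPM in KI.

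Nab1 and Nab2 showed the smallest spread of the 9 genes. Nab1 ranged over 52.9 to 66.5 CPM in WT and 50.6 to 68.9 CPM in KI, a log2 difference of 0.06 (SE 0.0593). Nab2 ranged over 22.9 to 29.2 CPM and 21.0 to 27.2 CPM, a difference of -0.05 (SE 0.0627). Their 95% intervals, -0.06 to 0.18 and -0.17 to 0.07, were the narrowest of the 9 genes. Nab2 (chromosome 10) overlaps Stat6, Nemp1 and Gm16229 on the opposite strand. The strand setting of the counts is not given in the sources used here, so the reads of Nab2 may include some of theirs. The same holds for Egr2, Egr4, Nr4a1, Nr4a3 and Nab1, which overlap annotated long noncoding RNA genes on the opposite strand. Nr4a1 also overlaps Gm56721 on its own strand. Egr1, Egr3 and Nr4a2 overlap no annotated gene.

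With edgeR's quasi-likelihood test with calls made at an FDR under 0.1 and a log2 fold change beyond 0.5 in either direction, 4 of the 9 genes were called between genotypes, Egr4 higher and Egr1, Egr2 and Egr3 lower. Over all 18227 genes 8.64% were called, 4.33% higher and 4.30% lower. Within females 3 members were called, all lower, against 7.15% of all genes, and within males none, against 0.252%. The members were chosen on this comparison, and nothing is read from these counts. With the mean of the 14 neuron markers as a covariate, the difference was -0.92 for Egr1 and 0.79 for Egr4, none of the 4 members was called, and the genes called overall numbered 182 in place of 1574. This mean was itself 4.51 in WT and 4.75 in KI (log2 CPM), so the covariate and genotype share variation. Whether neuronal RNA accounts for the lost calls cannot be read from this fit.

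**Figure D3:**
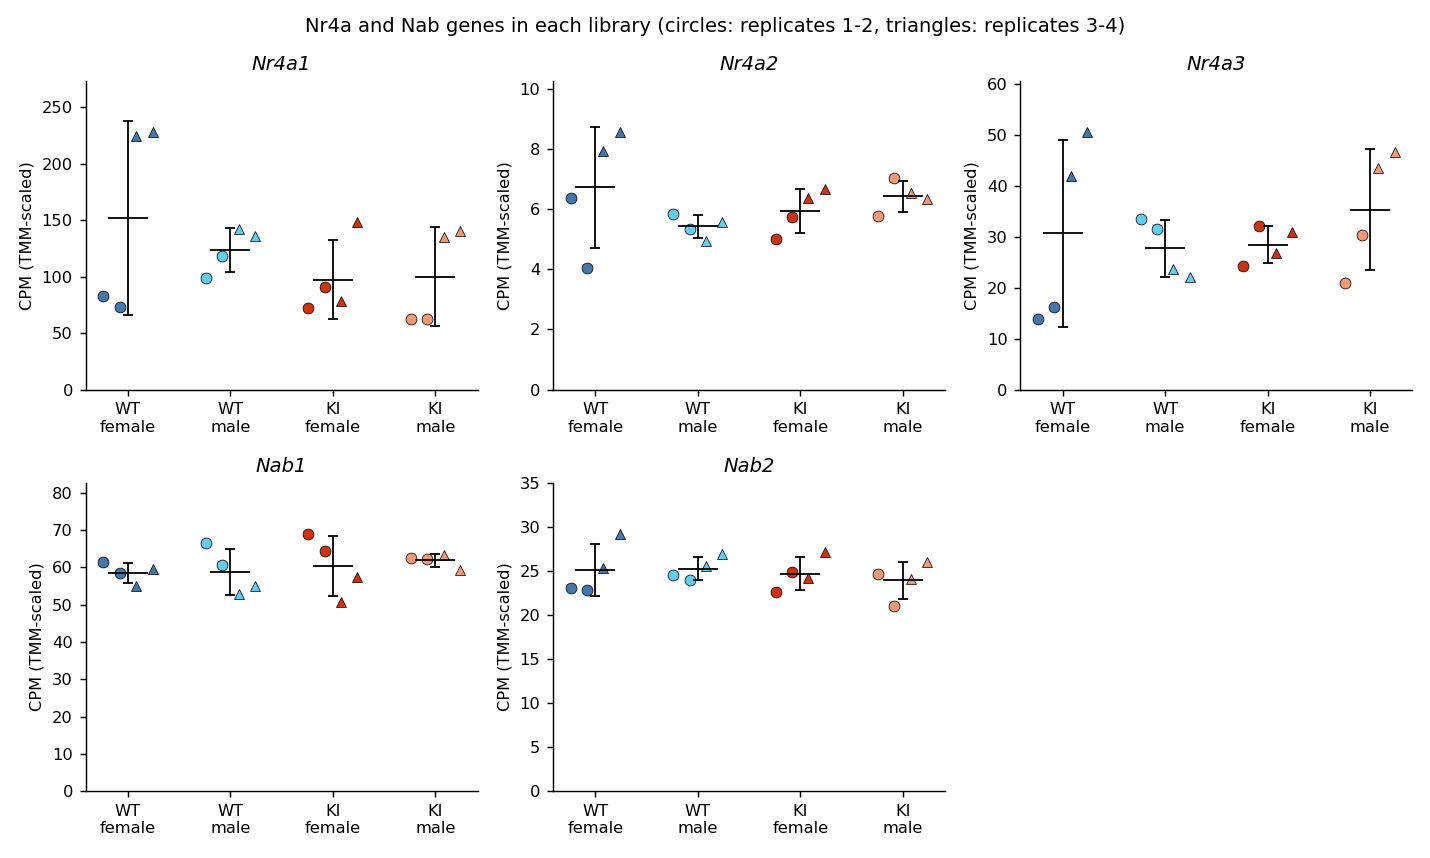
CPM of the Nr4a genes and of Nab1 and Nab2 in each library, drawn as for the Egr genes, with group means ± SD (n = 4). Replicates 3 and 4 (triangles) of Nr4a1 lie above replicates 1 and 2 (circles) in 3 of the 4 groups, while Nab1 and Nab2 vary little.

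The libraries are numbered 1 to 16 in the labels, with replicates 1 and 2 of every group in the numbers 1 to 8 and replicates 3 and 4 in 9 to 16. The labels do not call either set a batch. This split, balanced over genotype and sex, was not used in the choice of genes and was tested with both as terms. Nr4a1 was higher in replicates 3 and 4 by 0.88 on the log2 scale (SE 0.147, FDR 0.00919), the 26th smallest p of all genes. In WT females it was at 82.9 and 72.95 CPM in replicates 1 and 2 and at 224.6 and 227.8 CPM in replicates 3 and 4. In WT males the values were 98.6 and 118.3 against 142.4 and 135.9 CPM, and in KI males 62.4 and 62.7 against 134.9 and 140.7 CPM. KI females, at 72.4 and 90.6 against 78.5 and 148.6 CPM, were the group that overlapped. The call held with each library left out in turn.

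Egr2 was also called higher in replicates 3 and 4, by 0.52 (SE 0.143, FDR 0.0763). This call did not hold under limma voom (0.47, FDR 0.109), nor without any of 10 single libraries (KI female 1, 2 or 4, KI male 1, 3 or 4, WT female 2, 3 or 4, or WT male 1), where the difference was 0.44 to 0.54. The 2 called genes compare with 0.73% of all genes called for this split, 115 higher and 18 lower. Of the other members, Nr4a3 (0.51, SE 0.204, FDR 0.224), Egr3 (0.49, SE 0.193, FDR 0.221) and Egr1 (0.44, SE 0.21, FDR 0.322) lay at similar values without passing. Egr4 (0.28, FDR 0.673) and Nr4a2 (0.22, FDR 0.414) lay closer to 0. Nab1 was at -0.16 (FDR 0.102), the only member below 0, and Nab2 at 0.15 (FDR 0.153).

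Taken by genotype, which was added after seeing the data, the Nr4a1 difference was 0.95 (SE 0.212, FDR 0.0900) in WT, where 0.192% of genes were called, and 0.81 (SE 0.213, FDR 0.168) in KI, where 0.198% were called. Egr1 was at 0.02 (SE 0.258) in WT and 0.87 (SE 0.262) in KI, a gap of 0.85 (SE 0.365, unadjusted p = 0.0327, FDR 0.612) that did not pass over all genes. Seen the other way, the KI minus WT difference of Egr1 was -1.76 (SE 0.266) in replicates 1 and 2 and -0.92 (SE 0.261) in replicates 3 and 4. That of Egr4 was 0.80 (SE 0.369) and 1.29 (SE 0.366). Within replicates 1 and 2, Egr1, Egr2 and Egr3 were called between genotypes, as were 12.6% of all genes. Within replicates 3 and 4 no member was called (Egr1 and Egr4 at FDR 0.193 each), against 0.401% of all genes. No gene was called for a gap between the sets. The members were chosen on the genotype comparison, and nothing is read from these calls.

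Ratios within a library do not depend on its total. The log2 ratio of Nr4a1 to Egr2 was 1.06 on average in replicates 1 and 2 and 1.43 in replicates 3 and 4 (difference 0.37, exact permutation over 1296 splits within groups, two-sided p = 0.0278, adjusted over 4 ratios 0.0956). The ratio to Nr4a3 differed by 0.37 (exact p = 0.0478, adjusted 0.0956), to Egr1 by 0.45 (exact p = 0.199) and to Egr4 by 0.61 (exact p = 0.123). No ratio passed an adjusted 0.05. At the adjusted 0.1 used for calls elsewhere, the ratios to Egr2 and Nr4a3 passed and those to Egr1 and Egr4 did not. A larger rise of Nr4a1 than of all these relatives was therefore not shown. These ratios were chosen after seeing the data.

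**Figure D4:**
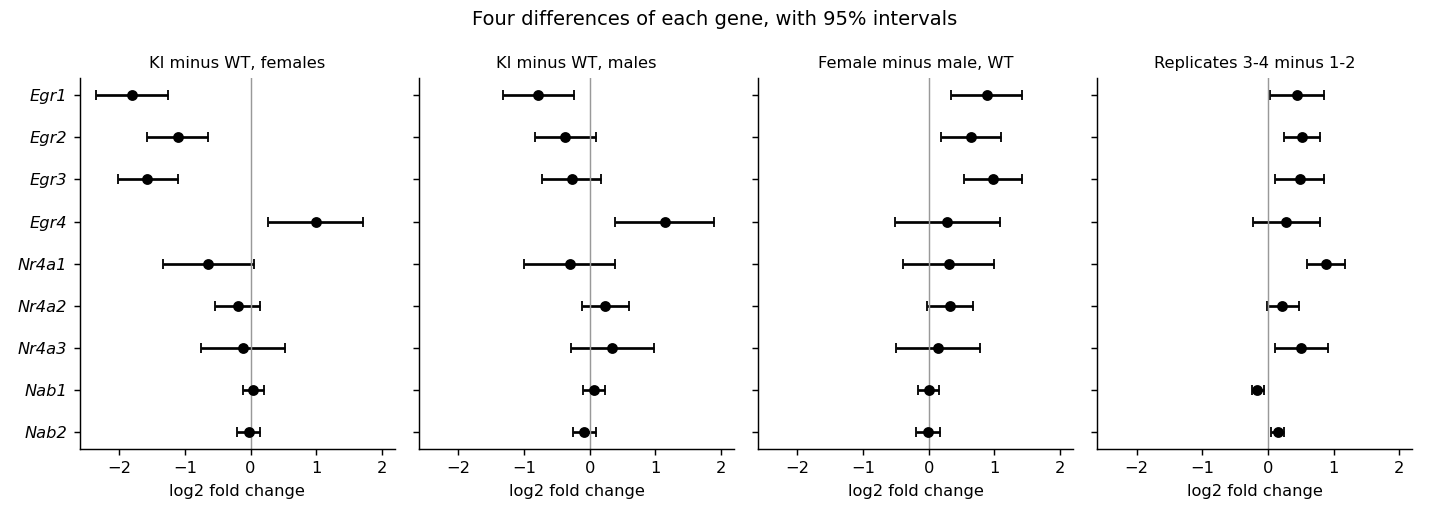
Log2 fold change of each gene, with 95% intervals, for KI minus WT in females and in males, for females minus males in WT, and for replicates 3 and 4 minus 1 and 2. Egr1, Egr2 and Egr3 lie on the same side of 0 in every panel, Egr4 lies opposite to them in both genotype panels, and Nr4a1 leads the last panel at 0.88.

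Sex was also independent of the choice. Over both genotypes no member passed (0 of 9, none at an unadjusted p under 0.05), against 0.0604% of all genes (edgeR). The largest difference was 0.37 (SE 0.227, FDR 0.793), for Egr1. Within WT, Egr3 was higher in females by 0.98 (SE 0.227, FDR 0.0642) and was called, against 0.938% of all genes. Its 4 WT female libraries, at 64.9 to 98.4 CPM, all lay above the WT male ones at 41.1 to 48.25 CPM. Egr1 (0.88, SE 0.275, FDR 0.195) and Egr2 (0.64, SE 0.233, FDR 0.297) had values of the same sign that did not pass over all genes. The Egr1 libraries of the WT sexes did not overlap, while those of Egr2 did. How many of all genes separate the WT sexes in this way was not counted, so nothing is read from the lack of overlap. The Egr3 call was lost, at an FDR of 0.101 to 0.251, without WT female replicate 1, 2 or 3, any WT male library or KI female replicate 1, and with the neuron covariate (0.92, FDR 0.145). In KI the difference between females and males was -0.32 (SE 0.234) for Egr3, -0.14 (SE 0.274) for Egr1 and -0.10 (SE 0.239) for Egr2.

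The genotype-by-sex interaction, which tests whether the KI minus WT difference is the same in both sexes, was passed by no member (0 of 9) and by 0.0274% of all genes in edgeR; DESeq2 called no member either. At an unadjusted p under 0.05 there were 3 members: Egr3 at -1.30 (SE 0.325, FDR 0.256), Egr1 at -1.02 (SE 0.388, FDR 0.687) and Egr2 at -0.74 (SE 0.334, FDR 0.812). Egr4 was at -0.16 (SE 0.535, FDR 0.995), with a 95% interval of -1.20 to 0.89. The larger female than male difference of Egr1 to Egr3 shares its WT libraries with the sex difference within WT.

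Variation within groups was compared after removing each group's mean from log2 CPM (prior count 2), over 16 libraries, with libraries permuted within groups (two-sided, 10 relations). Egr1 and Egr2 varied together with r = 0.83 (permutation p = 0.0153, adjusted 0.153; Spearman's rho 0.76, p = 0.0257), and r was 0.73 without the 2 libraries farthest from the median of Egr1. Egr1 and Egr3 had r = 0.79 (permutation p = 0.0314, adjusted 0.157; rho 0.70, p = 0.0498), and 0.69 without those 2. Over replicates 1 and 2 alone and replicates 3 and 4 alone, r was 0.72 and 0.81 for Egr2. For Egr3 it was 0.51 and 0.87. The means removed were those of all 4 libraries of a group. Both values therefore still hold the shift between the 2 sets and are not independent of each other. Egr1 and Egr4 had r = -0.12 (permutation p = 0.673; rho -0.34, p = 0.146) and -0.22 without the 2 libraries. Egr1 and Nr4a1 had r = 0.52 (permutation p = 0.0864, rho 0.41 with permutation p = 0.133). Over the 2 sets of replicates, with the same means removed, it was -0.07 and 0.36, both below the pooled value. None of the 10 relations passed the adjustment in this fit.

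**Figure D5:**
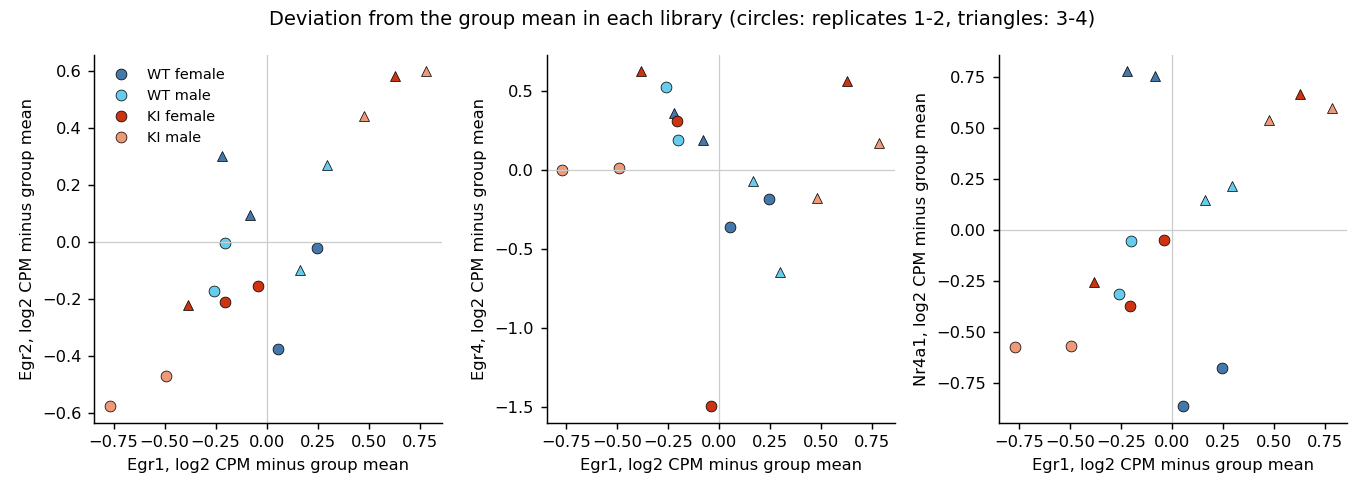
Deviation of log2 CPM from the group mean in each of 16 libraries, for Egr1 on the horizontal axis and Egr2, Egr4 and Nr4a1 on the vertical axes; colours mark groups and shapes the replicate numbers. Egr2 follows Egr1 (r = 0.83), Egr4 does not (r = -0.12), and for Nr4a1 the replicates 3 and 4 of WT females stand above the rest.

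Of the 15242 tested genes with a mean of at least 1 CPM, those most like Egr1 within groups were Plk3 (r = 0.98), a stress-responsive kinase, Gm45546 (0.98), Clk1 (0.97), a splicing kinase, Zfp36 (0.97), which destabilises AU-rich mRNAs, and Ier2 (0.97), another immediate early gene. Those most like Nr4a1 were Cd83 (0.97), an activation marker of antigen-presenting cells, Tob2 (0.96), Arl5c (0.96), Bcl6 (0.96), a transcriptional repressor, and Dleu2 (0.95). Those most like Egr4 were Ccdc107 (0.92), Kcnj12 (0.89), a potassium channel, Macrod1 (0.89), Ubtd1 (0.86) and Pear1 (0.83). None of the 15 genes appeared for more than 1 of these 3 members. These correlations are over 16 libraries that share their depth and numbering, were picked as the highest of many, and carry no test.

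The genes that signal to the Egr and Nr4a promoters were read in the same genotype comparison. Of 16 kinases of the MAP kinase, cAMP and calcium pathways (Mapk3, Prkaca, Camk4 and others) none was called, with a median log2 difference of 0.01; Camk4 came closest, at 0.49 (SE 0.137, FDR 0.0299), just under the size threshold. Of 18 DNA-binding factors and coactivators (Srf, Creb1, Elk1, Mef2c and others) none was called, with a median of -0.03; Mrtfb was at 0.37 (FDR 0.0117) and Crem, an inducible CREB relative, at -0.44 (FDR 0.0348). Of 16 tested cofactors, among them the Nr4a partner Rxra and the Nab partners Chd3 and Chd4, none was called, with a median of -0.07. The median over all genes was 0.00, and 8.64% of them were called. Lists of 16 to 18 genes without a call are not set apart from that share. The activity of these proteins was not measured. Camk4, Mrtfb and Crem were picked out after their values were seen.

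Other immediate early genes lay on the side of Egr1. Of 29 tested, 23 were lower in KI by the test and none higher, with a median of -0.86, where 4.30% of all genes were called lower. Btg2, an antiproliferative gene, fell by 1.44 (FDR 0.000723), Ier2 by 1.29 (FDR 0.000744), Zfp36 by 1.25 (FDR 0.0021), Jun, a subunit of AP-1, by 0.85 (FDR 0.00274) and Btg1 by 0.67 (FDR 0.00358). Fos was at -1.61 (FDR 0.006) and Fosb at -1.46 (FDR 0.0163). This list was written with the fall of Egr1 in these libraries known and is no independent support for it. For replicates 3 and 4 against 1 and 2, 5 of the 29 were called higher (Ier3, Dusp2, Gadd45b, Csrnp1 and Ppp1r15a, at 0.64 to 0.83), with a list median of 0.39 against 0.01 over all genes, of which 0.631% were called higher.

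Genes best known for following activity in neurons were mostly not called. Of 12 listed, 3 were called higher in KI, where 4.33% of all genes were, and none lower, with a median of 0.28: Arc, a synaptic regulator, rose from 17.3 ± 3.95 to 30.4 ± 4.81 CPM (SD, n = 8 each; log2 difference 0.81, FDR 0.000897), Npas4 from 6.51 ± 2.87 to 13.2 ± 4.3 CPM (1.04, FDR 0.0156) and Gadd45g from 23.5 ± 7.15 to 33.1 ± 6.3 CPM (0.50, FDR 0.0762). The other 9 did not pass, and Rasgrp1 (0.36, FDR 0.0213) was below the size threshold only. Of the 12 genes 10 were above 0, while Fbxo33 (-0.21) and Rheb (-0.20) had the opposite sign. Gadd45g lay at the size threshold. With single libraries left out, 2 to 4 of the 12 were called: 2 without KI female 1, 3 or 4, KI male 4, WT female 1 or 2 or WT male 4, and 4 without WT female 4 or WT male 1.

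Markers of neurons moved with genotype as well. None of the 14 passed both thresholds, but 11 were above 0, with a median of 0.35. Gad2 (0.38, FDR 0.00417), Snap25 (0.38, FDR 0.00512) and Syt1 (0.43, FDR 0.00796) were below the size threshold only. So were Gad1 (0.49, FDR 0.0205), Map2 (0.37, FDR 0.0228), Slc32a1 (0.39, FDR 0.0792) and Celf4 (0.33, FDR 0.0823). Slc17a7 (-0.13), Slc17a6 (-0.17) and Stmn2 (-0.13) had the opposite sign. Their summed level was 545 to 841 CPM in WT and 678 to 1110 CPM in KI. Of 8 neuroblast markers Dcx (0.72) and Igfbpl1 (0.79) were called higher, against 4.33% of all genes. Of 10 oligodendrocyte lineage markers 1, Mog (0.77), was called higher, which is not set apart from that share. No list had a marker at 0 in every library. Within groups the neuron marker mean and Egr4 had r = 0.33 (permutation p = 0.269, adjusted 0.448; rho 0.29, p = 0.296; 0.46 without the 2 farthest libraries), and the neuron marker mean and Egr1 had r = -0.42 (permutation p = 0.195, adjusted 0.448; rho -0.48, p = 0.109; -0.49 without them). Over replicates 1 and 2 alone and replicates 3 and 4 alone, r with the neuron marker mean was -0.68 and -0.66 for Egr1. For Egr4 it was 0.33 and 0.22. With the means of all 4 libraries of a group removed, both values still hold the shift between the sets and are not independent. Whether neuronal RNA takes part in the levels of Egr4 or Egr1 was not tested.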

How the data were processed

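Microglial RNA of 16 libraries was sequenced as total RNA after depletion of ribosomal RNA (Takara SMART-Seq Stranded, 6 ng input). The authors aligned reads with STAR to GRCm39 (gencode vM32), extended by human App, and the deposited values are the raw counts per gene that STAR produced, without normalization. The strand setting is not given in the sources used here. The 24 pairs of libraries within groups differed by more than sampling noise (chi-square per degree of freedom of 3.05 or more).

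Groups were taken from the titles. Genes that reached 5 counts in 8 or more of the 16 libraries were tested with edgeR 4.0.16 (R 4.3.3; TMM, quasi-likelihood with trended dispersion, Benjamini-Hochberg adjustment over all 18227 genes, 99.86% of counts), with sex as a term, and called at an FDR under 0.1 and a log2 fold change beyond 0.5 in either direction. SE is the size of the log2 fold change over the square root of F. Intervals are 95%. Correlations used 100000 permutation draws. The procedure was tested on simulated data. The 9 genes, the lists and the tests were chosen with earlier results of these data known. Named genes were the 9 members, up to 5 called genes of smallest p in each direction per list, the 5 genes most like Egr1, Egr4 and Nr4a1, Fos, Jun and Fosb, and list markers. Exonic lengths and positions came from gencode vM39, which matched 55211 of 57010 genes by symbol; promoters came from RefSeq. Precision is limited by library totals of 9052932 to 18117286 counts.

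Alternatives were RLE and upper quartile normalization, DESeq2 1.42.0, limma voom 3.58.1, other filters, a replicate block, the library set as a term, no sex term, a neuron covariate and leaving out each library. Libraries of the same number in KI and WT did not deviate together (r -0.33 to 0.13 over 8 pairs), so numbers were not taken as pairs. Marker lists without a called gene between genotypes were astrocyte, olfactory ensheathing, endothelial, pericyte and fibroblast, border macrophage, monocyte and neutrophil, T and NK cell, neuron and homeostatic microglia; none of the red blood cell markers passed the filter, and Wt1 and Fosl1 were not tested. The values of 1 listed gene are not reported here.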

Additional observations from a re-analysis of the deposited data

Results flagged for a closer look

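Among 36 groups of 4 libraries tested, 9 genes in 4 groups, 1 held a library far from the others: Egr2 in KI female replicate 4, at 51.6 CPM against 29.45 to 30.9 CPM in the other KI females, a gap of 0.935 of the group's range. Chance places about 1 in 20 groups past this limit.

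For replicates 3 and 4 minus 1 and 2, both libraries of a set moved one way in one group and the opposite way in another for 3 genes. For Egr1, WT females differed by -0.30 and WT males by 0.46 (females minus males -0.76 on the log2 scale). In KI males replicates 3 and 4 were higher as well, at 722.1 and 892.4 CPM against 304.0 and 368.4 CPM. For Egr4, on 5 to 20 counts, the WT female difference was 0.55 and the WT male one -0.71, a gap of 1.26. For Nr4a3 the differences were 1.60 (WT females), -0.50 (WT males) and 0.83 (KI males), a gap of 2.10 between the WT sexes and of -1.33 for WT minus KI males. These differences between groups, each of 2 libraries against 2, were not tested.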

How the results depend on the processing

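Of the settings other than leaving out a library, RLE and upper quartile normalization, a filter of 10 counts, DESeq2 and limma voom changed 1 call of a member, the Egr2 difference of replicates 3 and 4 from 1 and 2, lost under limma voom (1 member called in place of 2). Without a filter on low counts, 3 members (Egr1, Egr2 and Egr3) were called for the genotype-by-sex interaction, 3 for sex within WT and 3 for the replicate sets, while the genes called overall rose to 470 from 5, to 794 from 171 and to 304 from 133. DESeq2 called 81 genes for the interaction, 277 for sex within WT and 61 for the replicate sets. For sex within WT, 2 members were called with the library set as a term and 0 with the neuron covariate, under which 182 genes were called between genotypes. With single libraries left out, genotype calls ranged from 1101 (without KI male replicate 2) to 2187 (without KI male replicate 3), members called from 0 to 1 for sex within WT and from 1 to 3 for the replicate sets, and called genes from 0 to 1 in the kinase list (1 without KI female 3 or 4, KI male 2, 3 or 4, WT female 4 or WT male 1 or 4) and from 0 to 1 in the list of DNA-binding factors (1 without KI male replicate 4). The r of Egr1 ranged from 0.77 to 0.92 with Egr2 and from 0.70 to 0.86 with Egr3. Same-numbered libraries were not shown to be pairs. With a replicate block, 1562 genes were called between genotypes in place of 1574 and no member's call changed, while r was 0.76 for Egr1 with Egr2, 0.82 for Egr1 with Egr3 (adjusted permutation p = 0.0115 for each) and -0.69 for Egr1 with the neuron marker mean (adjusted permutation p = 0.0517). The causes of these changes were not tested. Depth limits Egr4 most, at 5 to 44 counts per library.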
